A study of Mus musculus with 24 samples.

Results

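Chemokine ligands and their receptors were followed in RNA from whole visceral fat of mice with a conditional knockout in Foxp3-expressing cells, the regulatory T cells, and of their controls. The set holds every gene of the deposited count table whose symbol begins with Ccl, Cxcl, Ccr or Cxcr and a number, together with Cx3cl1, Cx3cr1, Xcl1, Xcr1 and the atypical receptors Ackr1 to Ackr4, provided that the gene reached at least 10 counts in 4 or more of the 24 libraries. Of 62 genes with such a symbol, 51 met this floor, 31 ligands and 20 receptors, out of 27179 genes in the table. There were 6 groups of 4 libraries each: females and males of the genotypes given as PpargFoxp3cre (here Pparg knockout), TbetFoxp3cre (here T-bet knockout) and Foxp3cre (control), all from mice 27 to 33 weeks old. Every group, the controls too, carries the Foxp3 Cre driver, and both knockouts were compared with the same control libraries. RNA came from total visceral or perigonadal adipose tissue, so a deletion in Foxp3-expressing cells is not checked by tissue levels: Pparg, which adipocytes also express, measured 64.8 to 362 CPM (counts scaled to library size) over the libraries, Tbx21, the gene of T-bet, 0.0751 to 2.65 CPM and Foxp3 0.0694 to 1.51 CPM. The design asks how loss of either factor in regulatory T cells, and the sex of the mouse, relate to expression in the fat.

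Chemokines are small secreted proteins that guide leukocytes along gradients, and their receptors are G protein-coupled receptors on the responding cells. CC ligands such as CCL2 act mainly on monocytes, macrophages and T cells, CXC ligands that bind CXCR2 act on neutrophils, and CXCL12 acts through CXCR4. Atypical receptors bind chemokines and clear them without classical G protein signalling. In fat, the CCL2 to CCR2 axis is known for recruiting monocytes that become tissue macrophages, and stromal and endothelial cells are also sources of chemokines.

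Library totals ran from 8345575 to 31022845 counts, and chemokine genes made up 0.0667% to 0.159% of them. The adipocyte genes Adipoq (659 to 3985 CPM) and Plin1 (250.1 to 1935 CPM) were high in every library, though both were lowest in control female replicate 1. The sample titles give 2 batches, with replicates 1 and 3 of each group in batch 1 and replicates 2 and 4 in batch 2. For control female replicate 1 the source name gives batch 2 instead. Values below are in the order of replicates 1 to 4. Nothing in the labels says that libraries come from separate animals, nor whether equal animal numbers in both batches mean the same animal, and each p-value therefore reflects only how much the libraries vary, which may be technical. Summed CPM over 4 lists of epithelial genes stood at 6825 in control female replicate 1 and 4638 in T-bet knockout male replicate 4, against a median of 82.5, so counts of genes are also given without the 10 libraries above 124 CPM. In bulk tissue, fewer cells of a type and less RNA per cell cannot be told apart.

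Per unit of transcript length, the most abundant chemokine gene was Ccl6, a ligand of CCR1, with a mean of 5.96 log2 FPKM over the 24 libraries. It was followed by Cxcl12 at 5.49 and by Ccl11 (eotaxin, a ligand of the eosinophil receptor CCR3) at 5.29 log2 FPKM. Ccl21b, a CCR7 ligand that draws dendritic cells and naive T cells, had 5.08 log2 FPKM, but it has near-identical copies whose reads the counting could not be shown to separate. Ccl8, a mouse ligand of CCR8, had 4.71, and Cxcl9, an interferon-induced ligand of CXCR3, 4.06 log2 FPKM. Over the 24 libraries the SD was 1.04 for Ccl6, 0.60 for Cxcl12 and 0.72 for Ccl11, so the order of these neighbours lies within their spread.

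Among receptors, the highest was Ackr3, an atypical receptor that takes up CXCL12, at 4.40 log2 FPKM. Ccr2 was highest of the CC receptors at 3.89, and Cxcr4 highest of the CXC, CX3C and XC receptors at 2.89 log2 FPKM. The other highest members of their role were Ccl2 (3.54) among CCR2 ligands, Ccl27a (1.92), a ligand of the skin-homing receptor CCR10, and Cxcl1 (0.69), a neutrophil attractant, all in log2 FPKM. Cxcl2 was the lowest member with a value, at -1.18 log2 FPKM. Of the 51 members, 43 had a log2 FPKM value and 32 had at least 10 counts in every library. Just inside the floor lay Ccr4 and Ccr1l1, with 10 counts in 4 libraries, and Ccr3, with 10 counts in 5. Just outside lay Cxcl5, Cxcl3 and Cxcl17, with 10 counts in 2 libraries.

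**Figure D1:**
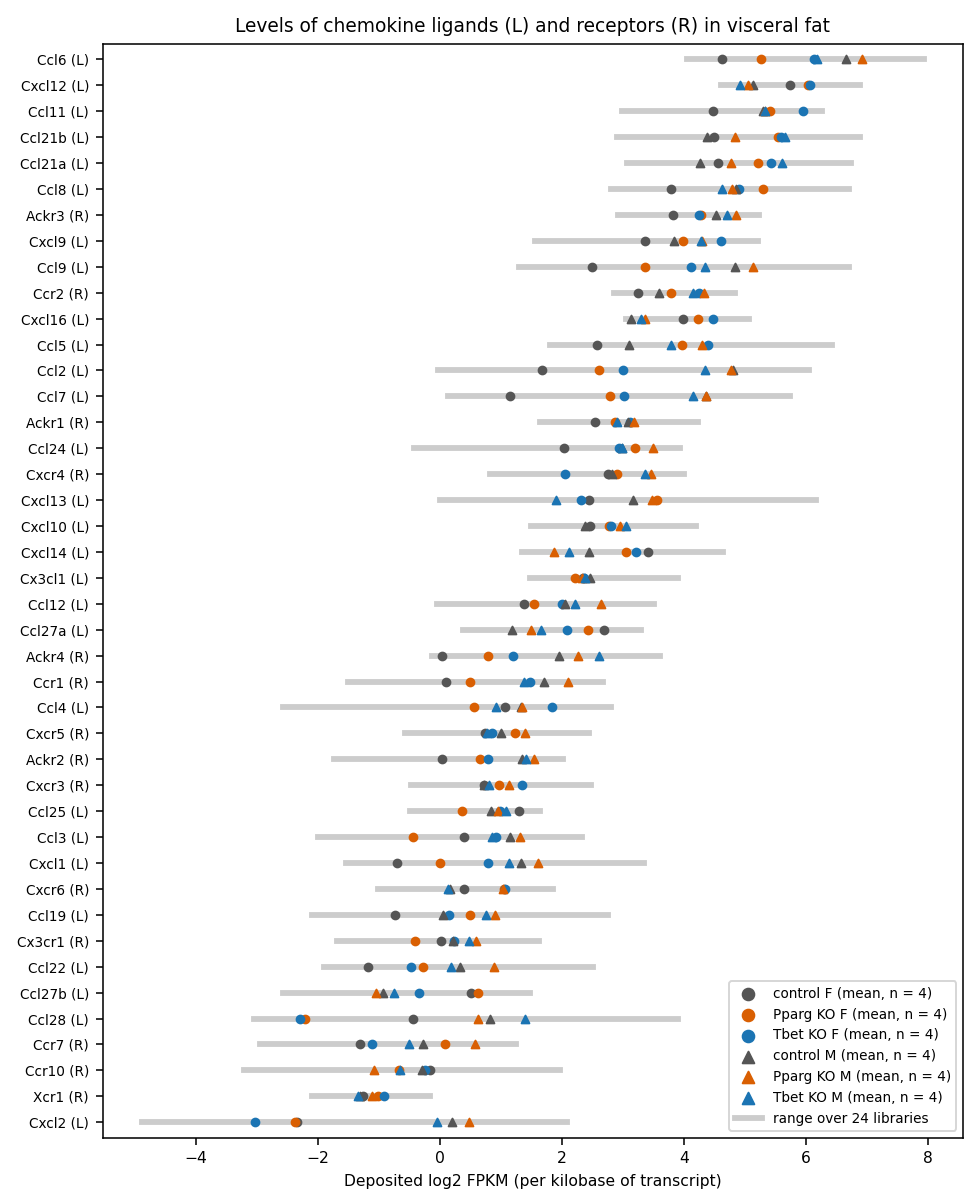
Mean log2 FPKM of 42 of the 43 chemokine ligand and receptor genes with a value, one mark per group, with a line spanning the lowest to the highest of the 24 libraries. Ccl6 had the highest mean (5.96) and Cxcl2 the lowest (-1.18).

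Sex differences were compared first, since more chemokine genes were called there than between genotypes. In control mice 12 of 51 members were called (adjusted p under 0.05), 8 higher in males and 4 higher in females, against 13.6% of all genes in each direction. This is 23.5% of members against 27.2% of all 17824 genes tested, so members were called about as often as other genes. The median log2 difference, male minus female, was 0.43 over members and -0.04 over all genes, and 36 of 51 members were above 0, against 47.1% of all genes. The 8 genes higher in males were monocyte, macrophage and neutrophil attractants (Ccl2, Ccl7, Ccl6, Ccl9, Cxcl1, Cxcl2), the CCR4 ligand Ccl22 and the atypical receptor Ackr4. Those higher in females were Ccl27a, Ccl27b, Cxcl14 and Cxcl16. Groups did not overlap for 10 members, 19.6% against 15.7% of all genes.

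Ccl2 (chr11:82035577-82037452 of GRCm38), the main monocyte attractant, measured 1.102, 2.93, 2.83 and 5.23 CPM in control females and 48.99, 12.9, 41.4 and 10.3 CPM in control males. The lowest male library was above the highest female one. The log2 difference was 3.23 ± 0.80 (adjusted p = 0.00645), a 9.37-fold difference. Ccl7 (chr11:82045712-82047525), its neighbour on chromosome 11 and a second CCR2 ligand, measured 1.22, 2.93, 1.32 and 1.99 CPM in females and 43.1, 6.69, 34.1 and 8.58 CPM in males. These groups did not overlap either, and the log2 difference was 3.48 ± 0.80 (adjusted p = 0.00398). The remaining CCR2 ligand, Ccl12, was not called, at 0.72 ± 0.60 (adjusted p = 0.393).

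The CCR1 ligands Ccl6 and Ccl9, which act on myeloid cells, were the most abundant of the male-higher genes. Ccl6 measured 25.1, 48.3, 25.99 and 52.7 CPM in control females and 392, 81.7, 291 and 60.3 CPM in control males, with no overlap and a log2 difference of 2.25 ± 0.53 (adjusted p = 0.00453). For Ccl9 the values were 9.398, 23.7, 18.9 and 24.4 CPM in females and 263, 39.5, 187 and 33.5 CPM in males, again without overlap, and the log2 difference was 2.40 ± 0.57 (adjusted p = 0.00515). In both genes the highest males were replicates 1 and 3, the batch 1 libraries. The receptor Ccr1 had 1.44 ± 0.53 (adjusted p = 0.0508) and was not called. Ccl3, Ccl4 and Ccl5, CC ligands that attract T cells and myeloid cells, were not called.

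Of the CXCR2 ligands, Cxcl1 measured 0.522, 0.595, 0.378 and 0.752 CPM in control females and 4.73, 1.797, 4.67 and 0.9998 CPM in control males, without overlap, and differed by 2.32 ± 0.72 (adjusted p = 0.0218) on the log2 scale. Cxcl2 had few reads, 10, 1, 5 and 5 counts in control females and 66, 8, 77 and 19 in control males. Its log2 difference was 3.02 ± 0.87 (adjusted p = 0.0156), with overlapping groups. Ccl22, which draws CCR4-bearing T cells, regulatory T cells among them, differed by 1.74 ± 0.60 (adjusted p = 0.0369). Its level was 0.764 ± 0.219 CPM in females and 3.06 ± 2.27 CPM in males (SD, n = 4). Ackr4, which clears CCL19, CCL21 and CCL25, rose from 2.22 ± 0.757 CPM in females to 9.18 ± 4.36 CPM in males (SD, n = 4), a log2 difference of 2.07 ± 0.62 (adjusted p = 0.01895). Ackr4 overlaps Acad11, and without strand information reads of the pair cannot be told apart. Ackr3, the most abundant atypical receptor, was not called, at 0.62 ± 0.24 (adjusted p = 0.0561).

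The bases before the start of transcription are shown for 4 members called in a sex comparison, 3 higher in males (Cxcl2, Ccl6, Ccl9) and 1 higher in females of both knockouts (Cxcl12), so that the regulatory sequence of genes that differ can be compared. They are the 250 bases before each start, on the gene's own strand, from RefSeq (GRCm38.p6): Cxcl2 at chr5:90903649-90903898 (+ strand), Ccl6 at chr11:83593088-83593337 (- strand), Ccl9 at chr11:83578637-83578886 (- strand) and Cxcl12 at chr6:117168285-117168534 (+ strand). Capitals mark matches to an NF-kB site or to TATAAA.
Cxcl2: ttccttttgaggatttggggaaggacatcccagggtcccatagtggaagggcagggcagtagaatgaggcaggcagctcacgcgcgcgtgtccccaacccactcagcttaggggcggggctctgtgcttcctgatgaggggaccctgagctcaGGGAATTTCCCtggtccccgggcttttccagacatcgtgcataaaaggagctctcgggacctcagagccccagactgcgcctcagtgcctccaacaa
Ccl6: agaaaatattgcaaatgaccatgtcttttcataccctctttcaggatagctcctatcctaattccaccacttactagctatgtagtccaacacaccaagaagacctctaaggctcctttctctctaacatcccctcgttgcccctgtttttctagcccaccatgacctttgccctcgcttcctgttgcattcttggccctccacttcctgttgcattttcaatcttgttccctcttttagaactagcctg
Ccl9: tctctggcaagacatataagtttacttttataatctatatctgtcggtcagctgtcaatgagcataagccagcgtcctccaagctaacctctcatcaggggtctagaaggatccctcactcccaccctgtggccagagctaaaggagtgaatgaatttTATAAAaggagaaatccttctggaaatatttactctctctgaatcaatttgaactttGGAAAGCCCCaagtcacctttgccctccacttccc
Cxcl12: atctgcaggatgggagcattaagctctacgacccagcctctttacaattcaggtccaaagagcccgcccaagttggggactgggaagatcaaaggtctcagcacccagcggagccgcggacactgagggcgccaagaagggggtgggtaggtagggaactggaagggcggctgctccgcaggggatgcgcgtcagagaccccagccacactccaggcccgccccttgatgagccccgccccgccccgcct
In Cxcl2 the capitals are 2 overlapping NF-kB matches, 97 to 88 and 96 to 87 bases before the start. In Ccl9 they are TATAAA, 92 to 87 bases before the start, and an NF-kB match 35 to 26 bases before it. The windows of Ccl6 and Cxcl12 held no match to either, nor to TTCNNNGAA (STAT) or TTGCNNAA (C/EBP). An NF-kB site was present in 7.25% of 32851 RefSeq windows, TATAAA on the gene's strand in 7.59%, TTCNNNGAA in 7.02% and TTGCNNAA in 9.56%, with sites other than TATAAA searched on both strands. Of 46 windows of 39 members, 8, 10, 4 and 7 held them. A match describes the letters only.

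Higher in control females was Cxcl16, the transmembrane ligand of CXCR6, at 36.4, 20.4, 65.98 and 41.8 CPM in females and 19.7, 19.7, 24.4 and 19.6 CPM in males. The groups overlapped, since female replicate 2 lay among the males, and the log2 difference was -0.95 ± 0.26 (adjusted p = 0.0115). Cxcl14, a chemokine made by stromal and epithelial cells, measured 43.2, 22.7, 10.8 and 12.4 CPM in females and 7.91, 9.11, 13.3 and 9.29 CPM in males, also overlapping, and differed by -1.12 ± 0.32 (adjusted p = 0.0136). Ccl27a measured 13.4, 5.71, 14.6 and 7.64 CPM in females and 4.02, 4.71, 2.71 and 2.21 CPM in males, a log2 difference of -1.52 ± 0.30 (adjusted p = 0.00149). Its near copy Ccl27b, at 1.66 ± 0.852 CPM in females and 0.6101 ± 0.115 CPM in males (SD, n = 4), differed by -1.37 ± 0.43 (adjusted p = 0.0231). Reads of the 2 copies may be split between them, and they overlap Il11ra1 and Il11ra2, while Cxcl16 overlaps Zmynd15, so these values are uncertain.

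The differences were larger in batch 1. With batch 1 alone and then batch 2 alone, the log2 difference was 4.44 and 1.51 for Ccl2, 3.71 and 0.49 for Ccl6, and 3.94 and 0.60 for Ccl9. For Cxcl2 it was 3.19 and 2.44, and for Ccl27a -2.09 and -0.95. By edgeR batch 1 alone called 20 members among 5812 genes, and batch 2 alone 0 members among 1307 genes. All 12 genes kept their sign in both batches. Leaving out 1 library of these groups at a time, Ccl2, Ccl7, Ccl6, Ccl9 and Ccl27a were called in all 8 fits. The count was lowest without control female replicate 3, at 6 among 3248 genes, and without control male replicate 1, at 7 among 3084 genes, where all libraries gave 4848 genes. Cxcl16 and Cxcl2 lost their calls without control female replicate 3, and Cxcl14 without control female replicate 1 or control male replicate 1. Cxcl1, Ccl22, Ccl27b and Ackr4 lost theirs without control male replicate 1, control female replicate 3 and, for all but Ackr4, control male replicate 3. Cxcl1 and Ccl22 also did so without control female replicate 1, and Ccl22 without control female replicate 2. Without the libraries with epithelial transcripts 12 members were called, among 4418 genes. That fit kept only replicates 1 and 3 of control males, both of batch 1, where the differences were larger. At an unadjusted p under 0.05 there were 16 members, 31.4% against 39.5% of all genes.

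Markers of cell types moved with this comparison. The macrophage and monocyte list, with 8 of 10 genes called higher in control males, summed to 296 to 992 CPM in control females and 1218 to 1539 CPM in control males. The neutrophil list summed to 0.692 to 2.44 CPM in females and 4.21 to 22.2 CPM in males, with S100a8 called of the 2 genes tested out of 5. Among adipose stromal progenitor genes 3 of 6 were lower in males, with sums of 2030.0 to 3844 CPM in females and 1704 to 2169 CPM in males, and 5 of 7 endothelial genes were higher in males. No macrophage, stromal or endothelial marker was at 0 in all libraries of a group. The part of these cell types in the chemokine differences was not tested.

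**Figure D2:**
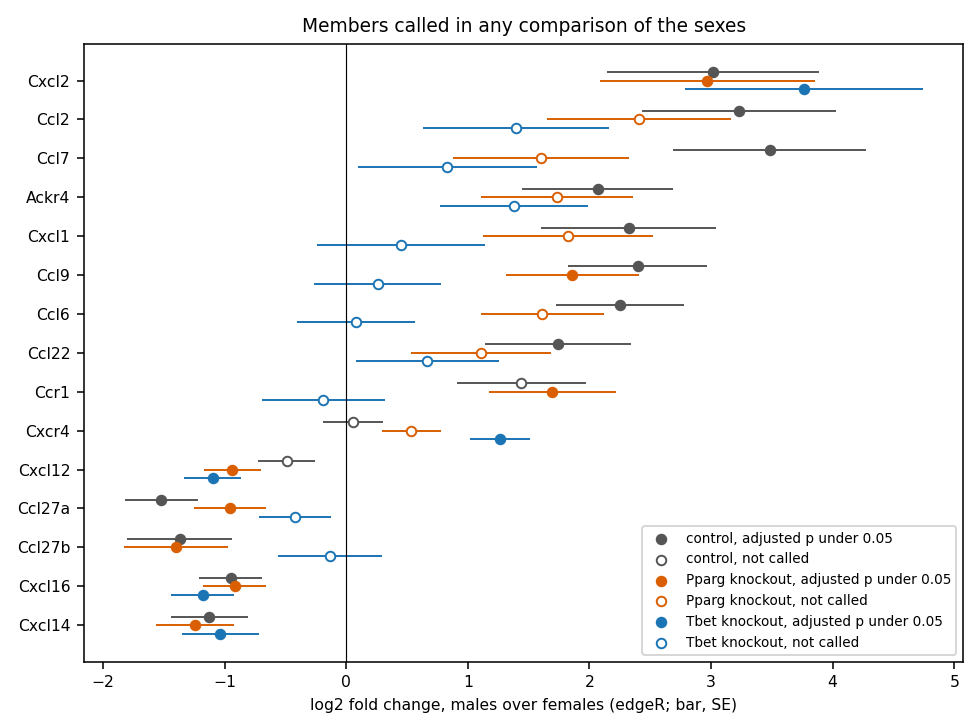
Log2 difference, male minus female, with its SE, of the 15 members called in any of the 3 sex comparisons, for control, Pparg knockout and T-bet knockout mice, with filled marks for calls. Ccl2 stood at 3.23 in controls and 1.40 in T-bet knockouts, while Cxcl16 and Cxcl14 lay below 0 in all 3 genotypes.

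In Pparg knockout mice 8 of 51 members were called between the sexes, 15.7% against 8.77% of all genes, with a median log2 difference of 0.41 over members and 0.01 over all genes. Cxcl2, Ccl9 and Ccr1 were higher in males, and Cxcl12, Cxcl14, Cxcl16, Ccl27a and Ccl27b were higher in females, against 3.59% and 5.18% of all genes in these directions. Above 0 lay 36 of 51 members, against 51.6% of all genes. Groups did not overlap for 12 members, 23.5% against 9.06% of all genes. The count depended on single libraries, as did that of all genes, 1564 with every library. It was 0 members among 655 genes without Pparg knockout female replicate 1, 0 among 609 without male replicate 1 and 0 among 715 without male replicate 3. Without female replicate 3 it was 2 among 1038 and without female replicate 2 it was 3 among 1124. It was also 0 among 189 genes without the 10 libraries with epithelial transcripts. That fit kept only replicates 1 and 4 of Pparg knockout females and replicates 2 and 3 of males. With all libraries 18 members had an unadjusted p under 0.05, 35.3% against 26.5% of all genes. Batch 1 alone called 12 members among 2141 genes and batch 2 alone 0 among 53.

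Cxcl12, the CXCR4 ligand made by stromal cells, measured 766, 314, 511 and 334 CPM in Pparg knockout females and 237, 263, 252 and 210.5 CPM in males. All 4 females were above all 4 males, and the log2 difference was -0.94 ± 0.23 (adjusted p = 0.0187). In controls it measured 261, 242, 618 and 384 CPM in females and 242, 250.2, 317 and 248 CPM in males, with overlap and a log2 difference of -0.49 ± 0.23 (adjusted p = 0.126). Cxcl14 (23.1, 10.3, 22.4 and 9.904 CPM in females, 7.298, 6.45, 6.29 and 5.83 CPM in males) did not overlap in Pparg knockouts and differed by -1.24 ± 0.32 (adjusted p = 0.02099). Cxcl16 did not overlap either, at 75.2, 30.2, 37.7 and 46.6 CPM in females and 28.02, 23.7, 24.1 and 22.9 CPM in males, and differed by -0.92 ± 0.26 (adjusted p = 0.0325). The copies Ccl27a and Ccl27b differed by -0.96 ± 0.30 (adjusted p = 0.0493) and -1.40 ± 0.43 (adjusted p = 0.0465). In batch 1 and batch 2 alone, the difference was -1.42 and -0.45 for Cxcl12, -1.77 and -0.72 for Cxcl14, and -1.15 and -0.72 for Cxcl16.

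Ccl9 measured 29.02, 32.7, 21.8 and 41.7 CPM in Pparg knockout females and 311, 89.7, 105 and 42.2 CPM in males, a narrow separation with male replicate 1 far above the rest, and differed by 1.86 ± 0.55 (adjusted p = 0.0401). Its receptor Ccr1 differed by 1.70 ± 0.52 (adjusted p = 0.0472), at 4.203 ± 1.72 CPM in females and 12.8 ± 4.25 CPM in males (SD, n = 4). Cxcl2 had 2, 10, 1 and 10 counts in females and 111, 48, 38 and 10 in males, and differed by 2.97 ± 0.88 (adjusted p = 0.0409). Their batch values were 3.01 and 0.83 for Ccl9, 2.45 and 0.80 for Ccr1, and 4.88 and 1.90 for Cxcl2. Ccl2, at 2.41 ± 0.75 (adjusted p = 0.0521), and Ccl6, at 1.61 ± 0.51 (adjusted p = 0.05204), were not called. Beside these, the macrophage list had 2 of 10 genes higher in males, with sums of 575 to 2205 CPM in females and 1515 to 1996 CPM in males, and 1 of 6 stromal progenitor genes was lower in males (2899 to 4203 CPM in females, 1832 to 2370.0 CPM in males). The neutrophil list summed to 0.902 to 2.104 CPM in females and 2.73 to 7.37 CPM in males, with Ly6g at 0 in both groups. Of 2 genes tested S100a8 was called higher in males (2.41 ± 0.63), with means of 0.687 CPM in females and 4.09 CPM in males. S100a9 of the same list went the other way, with means of 0.809 CPM in females and 0.640 CPM in males. Their part was not tested.

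In T-bet knockout mice 5 of 51 members were called between the sexes, 9.8% against 9.31% of all genes. Cxcr4 and Cxcl2 were higher in males, and Cxcl12, Cxcl16 and Cxcl14 were higher in females, against 3.93% and 5.38% of all genes in these directions. An unadjusted p under 0.05 was reached by 8 members, 15.7% against 25.9% of all genes. Groups did not overlap for 3 members, against 12.4%, and 24 of 51 lay above 0, against 52.7%. The median log2 difference was -0.04 over members and 0.03 over all genes. Cxcr4, the receptor of CXCL12, measured 11.9, 3.38, 12.3 and 6.46 CPM in females and 22.9, 15.99, 28.8 and 11.9 CPM in males. Across batches the groups overlapped slightly, while within each batch both males were above both females. The log2 difference was 1.26 ± 0.25 (adjusted p = 0.00367), and 1.06 and 1.5 in batch 1 and batch 2 alone.

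Its ligand Cxcl12 went the other way, at 519.6, 388, 497 and 474 CPM in T-bet knockout females and 281, 208, 240.3 and 160.4 CPM in males. The groups did not overlap, and the log2 difference was -1.10 ± 0.23 (adjusted p = 0.00651). Cxcl16 measured 79.6, 36.9, 50.9 and 51.8 CPM in females and 29.04, 24.7, 20.4 and 20.9 CPM in males, without overlap, and differed by -1.18 ± 0.26 (adjusted p = 0.00787). Cxcl14 differed by -1.03 ± 0.32 (adjusted p = 0.0465), a call lost in each of the 8 fits that left out 1 library. Cxcl2 had 3, 0, 5 and 1 counts in females and 7, 74, 15 and 25 in males, and differed by 3.76 ± 0.98 (adjusted p = 0.0208). Cxcr4, Cxcl16 and Cxcl12 were called in all 8 of those fits, and the count of members was 3 without female replicate 1, 2 or 4 or male replicate 2, where 945 to 1026 genes were called, against 1659 with every library. Cxcl2 was the call lost there beside Cxcl14, and its log2 difference from batch 1 libraries was 1.72, against 5.26 from those of batch 2. Cxcl12 had -1.0 and -1.22, and Cxcl16 -1.43 and -0.95. Without the libraries with epithelial transcripts 2 members were called, Cxcr4 and Cxcl16, among 1001 genes. That fit kept only replicates 1 and 3 of T-bet knockout males, both of batch 1. Stromal progenitor genes, 2 of 6 lower in males, summed to 2826 to 4354 CPM in females and 1660.0 to 2284 CPM in males, and their part in the Cxcl12, Cxcl14 and Cxcl16 values was not tested. The neutrophil list summed to 1.21 to 2.68 CPM in females, with Ly6g at 0, and 1.73 to 12.9 CPM in males. S100a8 was called higher in males (3.04 ± 0.66) of 2 genes tested. S100a9 of the same list went the other way, with means of 0.959 CPM in females and 0.537 CPM in males. The part of neutrophils in the Cxcl2 values was not tested.

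The monocyte and macrophage attractants that were higher in control males were not called in T-bet knockouts. Ccl2 differed by 1.40 ± 0.76 (adjusted p = 0.254), Ccl7 by 0.83 ± 0.73 (adjusted p = 0.5), Ccl6 by 0.08 ± 0.49 (adjusted p = 0.934) and Ccl9 by 0.26 ± 0.53 (adjusted p = 0.794). The macrophage list summed to 974 to 1522 CPM in females and 932 to 1330.0 CPM in males, with 1 of 10 genes called. Ccl6 measured 148, 74.2, 96.9 and 84.05 CPM in T-bet knockout females, all above the control females, and 117, 81.6, 125 and 100.4 CPM in males. Whether the sex difference itself differed from that of controls was tested as the T-bet effect in males minus that in females, given after the knockout comparisons.

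**Figure D3:**
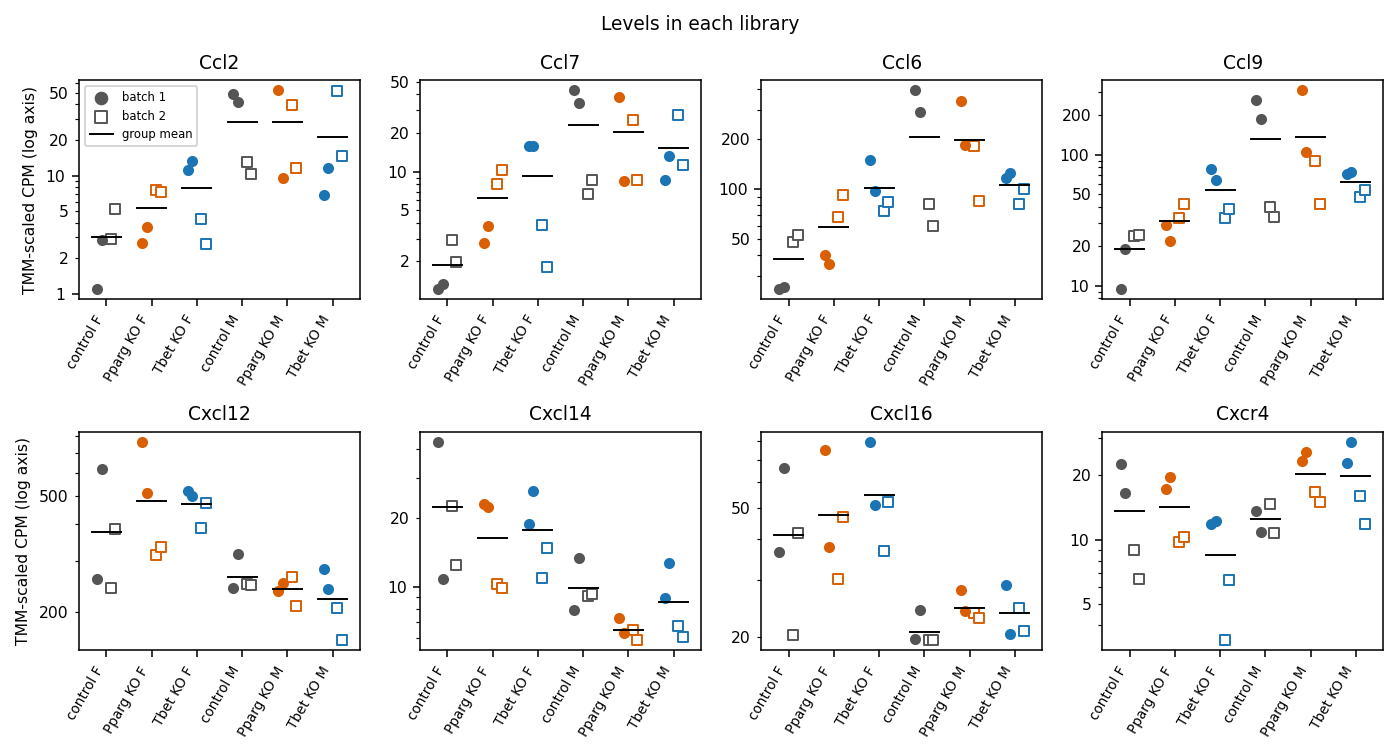
CPM of 8 members in each library on a log axis, by group, with filled circles for batch 1, open squares for batch 2 and a line at the group mean. Among control males the batch 1 libraries were highest for Ccl6, at 392 and 291 CPM, while Cxcl12 in T-bet knockout females lay between 388 and 519.6 CPM, above all T-bet knockout males.

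By edgeR over all libraries no chemokine gene was called in either knockout against control, while DESeq2 and limma on log2 FPKM called some in females. In T-bet knockout females edgeR on batch 1 alone called 8 members among 619 genes, and on batch 2 alone 0 among 119. In Pparg knockout females edgeR called 0 of 51 members, against 0.0168% of all genes. At an unadjusted p under 0.05 there were 8 members, 15.7% against 11.9% of all genes. DESeq2 called 1 member, Ccl25, among 368 genes, limma-voom 0 and limma on log2 FPKM 0, and groups did not overlap for 2 members, against 2.44% of all genes. The median log2 difference was 0.39 over members and -0.02 over all genes, with 38 of 51 above 0 against 46.9% of all genes.

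Ccl25, a ligand of the gut-homing receptor CCR9, measured 2.29, 0.939, 1.96 and 1.59 CPM in Pparg knockout females and 3.13, 3.45, 2.99 and 3.31 CPM in control females. All 4 knockout libraries were below all 4 controls, and the log2 difference was -0.93 ± 0.29 (adjusted p = 0.298), with an adjusted p of 0.0319 in DESeq2. Ccl8 measured 42.4, 6.12, 16.3 and 36.96 CPM in knockouts and 5.28, 5.43, 11.2 and 9.06 CPM in controls, overlapping, with a log2 difference of 1.68 ± 0.54 (adjusted p = 0.298). Ccl5, a CC ligand made by T and NK cells, measured 8.47, 3.61, 3.35 and 44.6 CPM in knockouts and 3.31, 4.76, 2.11 and 3.08 CPM in controls, overlapping, with a log2 difference of 2.10 ± 0.77 (adjusted p = 0.301) that was 0.61 without knockout replicate 4. Replicate 4 of the knockouts, highest for Ccl5, also had the highest T cell marker sum of its group, 89.4 CPM. The T cell list had 0 of 8 genes called, with sums of 8.81 to 25.8 CPM in controls and 10.97 to 89.4 CPM in knockouts. The NK and cytotoxic lymphocyte list had 0 of 7 called and sums of 3.68 to 9.08 CPM in controls and 5.74 to 35.6 CPM in knockouts, highest in the same replicate 4. The part of these cells in the Ccl5 values was not tested.

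In Pparg knockout males 0 of 51 members were called by edgeR, DESeq2, limma-voom and limma on log2 FPKM, as were 0% of all genes by edgeR. There were 3 members with an unadjusted p under 0.05, 5.88% against 2.55% of all genes, and 39 of 51 lay above 0, against 48.9%. Groups did not overlap for 4 members, against 1.52% of all genes. Ccr2, the receptor of monocytes for CCL2, measured 92.5, 108, 48 and 57.3 CPM in knockouts and 42.5, 55.4, 40.2 and 37.3 CPM in controls, overlapping, with a log2 difference of 0.80 ± 0.27 (adjusted p = 1). Cxcr4 measured 23.2, 16.7, 25.8 and 15.1 CPM in knockouts and 13.6, 14.8, 10.9 and 10.7 CPM in controls, without overlap, with a log2 difference of 0.60 ± 0.24 (adjusted p = 1). Cxcr6, the receptor of CXCL16 on activated T cells, had 0.86 ± 0.38 (adjusted p = 1). The macrophage list summed to 1515 to 1996 CPM in knockout and 1218 to 1539 CPM in control males, with 0 of 10 genes called. The T cell list, 0 of 8 called, summed to 16.8 to 46.9 CPM in knockout and 10.3 to 35.7 CPM in control males. The NK and cytotoxic lymphocyte list, 0 of 7 called, summed to 11.9 to 20.6 CPM in knockout and 5.701 to 10.5 CPM in control males, without overlap. The part of these cells in the Ccr2, Cxcr4 and Cxcr6 values was not tested.

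T-bet knockout females had the most genes called of the knockout comparisons, 1.22% of all genes, and again 0 of 51 members by edgeR. In all, 13 members had an unadjusted p under 0.05, 10 higher and 3 lower, 25.5% against 17.3% of all genes. DESeq2 called 4 members, Ccl11, Ccl5 and Ccr2 among them, of 1236 genes it called in all, limma-voom 0 members, and limma on log2 FPKM 1, Ccl11, of 340 genes. The median log2 difference was 0.55 over members and -0.04 over all genes, and 38 of 51 lay above 0, against 44.3% of all genes. Groups did not overlap for 3 members, against 4.97% of all genes. By role the medians were 1.4 for CCR2 ligands and -0.84 for mucosal and skin CC ligands.

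Ccl11 measured 58.6, 51, 71.6 and 79.7 CPM in T-bet knockout females and 10.4, 51.1, 19.5 and 38.3 CPM in control females. Only control replicate 2 reached the level of the lowest knockout, and the log2 difference was 1.27 ± 0.35 (adjusted p = 0.08398). In batch 1 alone it was 2.12 ± 0.30 (adjusted p = 0.0105) and in batch 2 alone 0.55 ± 0.39 (adjusted p = 0.578). Ccr2 measured 68.01, 64.4, 77.5 and 57.9 CPM in knockouts and 27.1, 34.1, 27.3 and 54.1 CPM in controls, without overlap, with 0.97 ± 0.27 (adjusted p = 0.0866). Ccl5 measured 30.1, 6.07, 24.9 and 3.23 CPM in knockouts, the batch 1 libraries far above those of batch 2, and its log2 difference was 2.45 ± 0.79 (adjusted p = 0.124), or 3.37 and 0.24 in batch 1 and batch 2 alone.

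Ccl7 (2.19 ± 0.77), Ccl6 (1.31 ± 0.50), Ccl9 (1.27 ± 0.54), Ccl8 (1.33 ± 0.54), Cxcl1 (1.73 ± 0.71) and Ccr1 (1.11 ± 0.51) were the other named members above 0 at an unadjusted p under 0.05, on the log2 scale with SE. The 3 below 0 were Cxcr4 at -0.66 ± 0.25, Ccl27a at -0.65 ± 0.29 and Ccl27b at -1.03 ± 0.43. The macrophage list had 0 of 10 genes called and sums of 974 to 1522 CPM in knockouts and 296 to 992 CPM in controls. The T cell list had 0 of 8 called and sums of 13.9 to 57.5 CPM in knockouts and 8.81 to 25.8 CPM in controls, with knockout replicates 1 and 3, the high Ccl5 libraries, at 53.97 and 57.5 CPM. The NK and cytotoxic lymphocyte list had 0 of 7 called and sums of 10.7 to 23.7 CPM in knockouts and 3.68 to 9.08 CPM in controls, without overlap. The part of these cells was not tested. Without the libraries with epithelial transcripts, 1 member was called, Ccl11, at an adjusted p of 0.0383.

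In T-bet knockout males 0 of 51 members were called by edgeR, DESeq2, limma-voom and limma on log2 FPKM, against 0.00561% of all genes by edgeR. One member, Cxcr4, had an unadjusted p under 0.05, 1.96% against 4.38% of all genes, at 0.55 ± 0.24 (adjusted p = 1). The median log2 difference was -0.05 over members and -0.01 over all genes. Above 0 lay 25 of 51, against 48.5% of all genes, and groups did not overlap for 1 member, against 1.51%. Ccl6 had -0.86 ± 0.49 (adjusted p = 1) and Ccr2 0.52 ± 0.27 (adjusted p = 1).

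**Figure D4:**
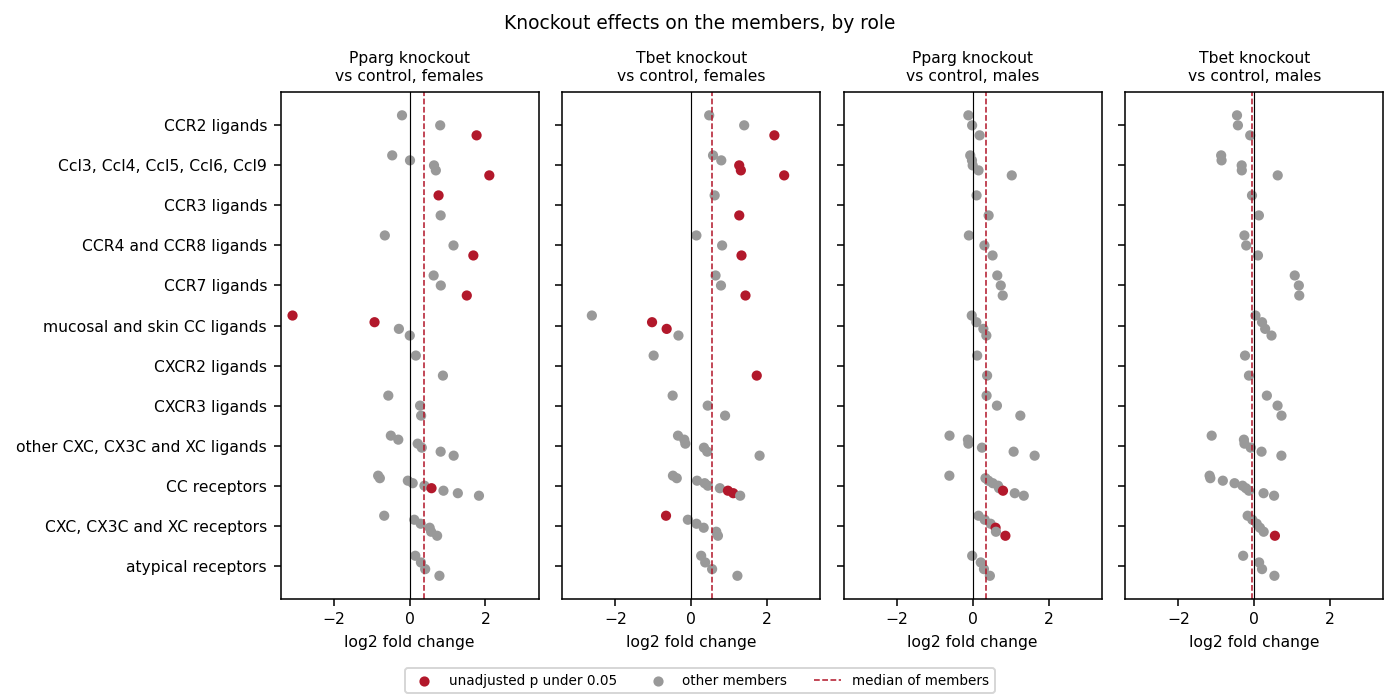
Log2 difference from control of 50 of the 51 members by role in each knockout and sex, with red points for an unadjusted p under 0.05 and a dashed line at the median of all 51. The medians were 0.39 and 0.36 in Pparg knockout females and males and 0.55 and -0.05 in T-bet knockout females and males. With all libraries, edgeR called no member in any of these comparisons.

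Between the 2 knockouts 0 of 51 members were called by edgeR, DESeq2, limma-voom or limma on log2 FPKM, in females (0% of all genes by edgeR) or in males (0%). In females 2 members had an unadjusted p under 0.05, 3.92% against 4.8% of all genes, 36 of 51 lay above 0, against 48.8%, and groups did not overlap for 1, against 1.76%. Cxcr4 had a log2 difference, T-bet minus Pparg, of -0.79 ± 0.25 (adjusted p = 0.655), Ccl27b one of -1.03 ± 0.43 (adjusted p = 0.967) and Ccr1 one of 1.03 ± 0.51 (adjusted p = 1). In males 2 members had an unadjusted p under 0.05, 3.92% against 4.24% of all genes. There 11 of 51 members lay above 0, against 50.7% of all genes, with a median of -0.29 against 0, and groups did not overlap for 1, against 1.53%. Cxcl13, the B cell attractant that binds CXCR5, measured 4.72, 4.41, 1.56 and 8.19 CPM in T-bet and 31.6, 0.795, 83.8 and 9.95 CPM in Pparg knockout males, with a log2 difference of -2.75 ± 0.85 (adjusted p = 0.985). The rare receptors Ccr4, found on regulatory and other T cells, and Ccr9 had -1.94 ± 0.92 (adjusted p = 1) and -1.59 ± 0.79 (adjusted p = 1). The B cell list had 0 of 6 genes called, with sums of 58.9, 10.7, 163 and 141 CPM in Pparg and 10.9 to 35.03 CPM in T-bet knockout males, and its part in the Cxcl13 values was not tested.

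Whether a knockout difference depended on sex was tested directly, and edgeR over all libraries called 0 of 51 members in both tests. For Pparg 0% of all genes were called and 2 members had an unadjusted p under 0.05, 3.92% against 6.14% of all genes, with 0 members called by DESeq2, limma-voom and limma on log2 FPKM, and 24 of 51 lay above 0, against 51.9%. Ccl7 had a difference, male minus female effect, of -1.88 ± 1.01 (adjusted p = 0.805), Ccl8 one of -1.78 ± 0.75 (adjusted p = 0.805) and Ccl25 one of 1.02 ± 0.41 (adjusted p = 0.805). For T-bet 0.00561% of all genes were called and 7 members had an unadjusted p under 0.05, 13.7% against 11.5% of all genes, with 1 member called by DESeq2, Cxcr4, among 236 genes, and 0 by limma-voom and limma on log2 FPKM. The median was -0.56 over members and 0.03 over all genes, and 15 of 51 lay above 0, against 53.9%.

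For Cxcr4 the T-bet effect in males minus that in females was 1.21 ± 0.35 (adjusted p = 0.278) on the log2 scale. In batch 1 alone this was 1.77 ± 0.28 (adjusted p = 0.0287) and in batch 2 alone 0.79 ± 0.44 (adjusted p = 0.777). Ccl6 and Ccl9 had -2.17 ± 0.71 (adjusted p = 0.323) and -2.14 ± 0.77 (adjusted p = 0.355). In batch 1 alone they were -3.76 ± 0.45 (adjusted p = 0.0126) and -3.95 ± 0.71 (adjusted p = 0.0477), and in batch 2 alone -0.28 and -0.09. The same contrast is the sex difference of T-bet knockouts minus that of controls, so the loss of the Ccl6 and Ccl9 calls in T-bet knockouts is not shown to be a difference from controls over all libraries.

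Some members followed single libraries rather than groups. Ccl28, an epithelial ligand of CCR10 chosen here after its values were seen, measured 12.2, 1.67, 1.196 and 1.805 CPM in control females, 1.04, 50.8, 0.608 and 30.8 in control males, 16.7, 1.13, 0.607 and 54.5 in Pparg knockout males and 3.55, 37.7, 1.04 and 36.2 in T-bet knockout males. In knockout females it stayed between 0.467 and 1.45 CPM. The libraries high for Ccl28 were those with high sums of the female reproductive tract epithelium list, at 5986, 8.21, 12.5 and 12.2 CPM in control females and 12.2, 120.0, 13.4 and 58.7 CPM in control males. In Pparg knockout males they were 50.8, 4.69, 11.3 and 139.5 CPM and in T-bet knockout males 28.1, 92.9, 4.82 and 483 CPM. The highest sum, 5986 CPM, went with only 12.2 CPM of Ccl28. Ovgp1 of this list measured 4629 CPM in that library but 1.96 to 4.15 CPM in males, so the male sums came mostly from its other genes. The general epithelium list was also high in the male libraries high for Ccl28 (89.3 to 324.5 CPM). It was high too in Pparg knockout female replicates 2 and 3 (224.3 and 332.6 CPM), where Ccl28 was low. T-bet knockout male replicate 4 also summed to 3813 CPM over the male reproductive tract epithelium list. The part of epithelium in the Ccl28 values was not tested. Ccr10, the CCR10 receptor gene, also chosen after its values were seen, lay between 0.278 and 1.03 CPM in batch 1 and between 1.34 and 6.18 CPM in batch 2, without overlap. It was the only member whose batches did not overlap, and the share of all genes that did so was not computed. Ccr10 overlaps Cntnap1, and without strand information reads of the pair cannot be told apart.

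**Figure D5:**
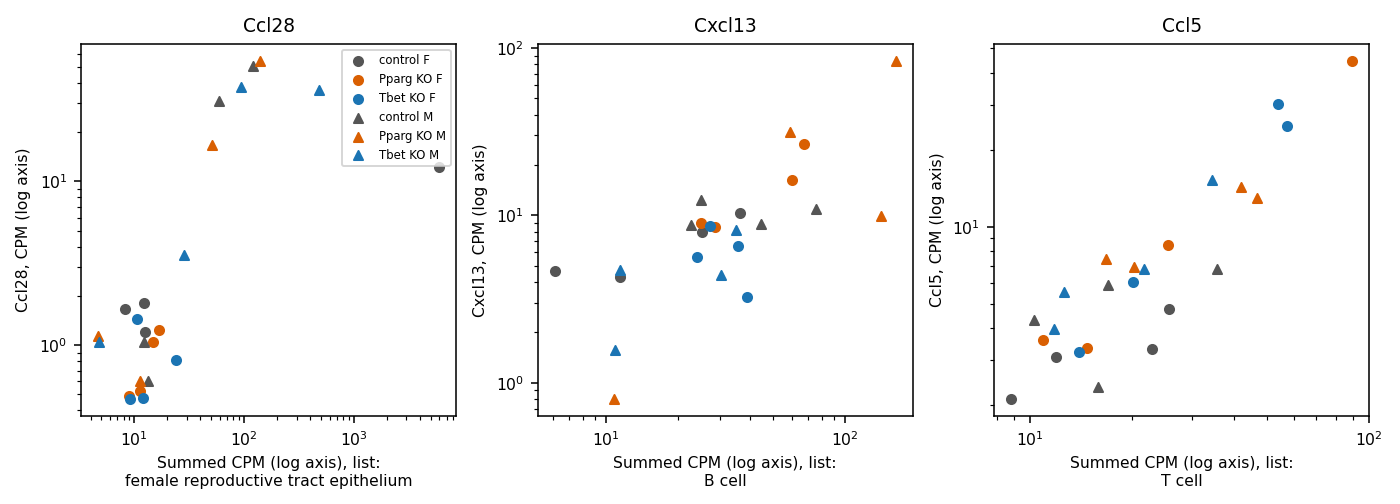
CPM of Ccl28, Cxcl13 and Ccl5 in each library against the summed CPM of the female reproductive tract, B cell and T cell marker lists, on log axes. Ccl28 was highest at 54.5 CPM in Pparg knockout male replicate 4, and Ccl5 at 44.6 CPM in Pparg knockout female replicate 4, where the T cell sum was 89.4 CPM.

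Genes that act with chemokines were read from lists chosen beside the members, and the shares of all genes called were 13.6% in each direction between control males and females and 1.22% in T-bet knockout females. Of 27 genes of chemokine receptor signalling, 11 were higher and 2 lower in control males, among them the guanine nucleotide exchange factor Dock2 (1.31 ± 0.27 on the log2 scale), and the median log2 difference was 0.23. In T-bet knockout females 2 of the 27 were called higher, the beta-arrestin gene Arrb1 (0.52 ± 0.12) and Dock2 (1.10 ± 0.27). Of 19 tested genes for cytokines and transcription factors that induce chemokines, 2 were higher in control males, Stat6 (0.49 ± 0.11) and Tnfaip3 (0.67 ± 0.19), and 1 was lower in T-bet knockout males than females, Nfkbiz (-0.47 ± 0.14). Of 18 chemokine-like ligands, receptors and modifying enzymes, 8 were higher in control males, among them the complement receptors C3ar1 (1.5 ± 0.29) and C5ar1 (1.66 ± 0.50) and the platelet chemokine Pf4 (1.58 ± 0.52). In T-bet knockout females 2 of these 18 were called higher than in controls, the MIF receptor Cd74 (1.03 ± 0.22) and Rarres2, which encodes chemerin (0.90 ± 0.21). In Pparg knockout mice 3, 1 and 2 genes of these lists were higher in males, against 3.59% of all genes, and in T-bet knockout mice, against 3.93%, 1 of the signalling list, Gng2 (0.64 ± 0.19).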

How the data were processed

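Gene counts of 24 libraries were deposited by the authors as one table of raw counts per gene. The submitters' processing notes name featureCounts, limma and the builds GRCm38 and mm10, with no versions or strand setting. Log2 FPKM values for 15764 genes in each library were deposited by the authors as well, and served here for levels between genes and 1 alternative test. Counts were analysed with edgeR 4.0.16 in R 4.3.3: filterByExpr kept 17824 genes, library sizes were scaled by TMM, and a robust quasi-likelihood model held the 6 groups and the batch as terms, leaving 17 residual degrees of freedom. P-values were adjusted by Benjamini-Hochberg over all 17824 genes, and a gene was called under 0.05. CPM are TMM-scaled, means are over 4 libraries with SD, and ± after a log2 difference is its SE. The common biological coefficient of variation was 0.404. Library totals, 8345575 to 31022845 counts, set the precision, and low genes such as Cxcl2 rest on few reads.

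Batch followed the sample titles. For control female replicate 1 the titles and source names differ on the batch, and the latter was tried as an alternative. Alternatives were DESeq2 1.42.0, no filter, RLE scaling, limma-voom with quality weights (limma 3.58.1), limma on log2 FPKM, a replicate block, no batch term, each batch alone and leaving out each library, and, added after seeing the data, leaving out libraries with epithelial transcripts. The model was tested on simulated counts.

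Named genes were those called in any of 11 comparisons, the 3 with the smallest p in each and the most abundant of each role. Members and lists were chosen with earlier results of these data known. Genes of near-identical sequence or overlapping another gene (22 members) are uncertain, since the strand setting is not given in the sources used here. One gene of the set is counted among the 51 but not reported here. Promoter windows are from the RefSeq table, matched by gene identifier. No pair of libraries in a group agreed within sampling noise: the smallest chi-square per degree of freedom over genes was 18.8.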

Additional observations from a re-analysis of the deposited data

Results flagged for a closer look

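In 12 of 162 groups (27 named genes in 6 groups), 1 library stood apart from the other 3 of its group by Dixon's criterion, where chance alone gives about 1 in 20. Above the rest of their group were Ccl11 in Pparg knockout male replicate 2 (79.1 CPM, others 33.3 to 37.5), Ccl2 in T-bet knockout male replicate 2 (51.8 CPM, others 6.91 to 14.5), Cxcl1 in the same library (5.37 CPM, others 1.35 to 1.73), Ccl21b in T-bet knockout male replicate 1 (96.01 CPM, others 30.4 to 31.99) and Ccl22 in Pparg knockout male replicate 1 (9.76 CPM, others 1.88 to 2.89). Ccl5 in Pparg knockout female replicate 4 stood at 44.6 CPM, others 3.35 to 8.47. Control male replicate 3 was high for Ccl25 (2.71 CPM, others 2.08 to 2.18), Cxcl12 (316.6 CPM, others 242 to 250.2) and Cxcl16 (24.4 CPM, others 19.6 to 19.7). Below the rest were Ccr4 in Pparg knockout female replicate 1 (0.0694 CPM, others 0.335 to 0.388), Ccr9 in control female replicate 3 (0.0944 CPM, others 0.436 to 0.464) and Cxcr6 in Pparg knockout male replicate 3 (2.77 CPM, others 4.02 to 4.25).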

How the results depend on the processing

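Of 25 calls of a member in a comparison, DESeq2 kept 25, RLE scaling 24, log2 FPKM 22, the replicate block 20, the source-name batch 20, no filter 19, batch 1 alone 17, voom 16, no batch term 14, the libraries without epithelial transcripts (chosen after seeing the data) 12 and batch 2 alone 3. Counts of members called moved as follows, with the number of all genes called in brackets where given. The main model called 218 genes in T-bet knockout females. For sex it called 4848 in controls, 1564 in Pparg and 1659 in T-bet knockouts. With DESeq2 they were 1 (368) in Pparg knockout females, 4 (1236) in T-bet knockout females and 13 (2803) for sex in Pparg knockouts. DESeq2 also gave 1 for the sex dependence of the T-bet effect, with its number of genes stated above. With batch 1 alone they were 8 (619) in T-bet knockout females, 20 (5812) for sex in controls and 2 (433) for sex in T-bet knockouts. Batch 1 alone also gave 4 for the sex dependence of the T-bet effect. The number of all genes called in that fit is not given here, so those 4 have no background to be set against. With batch 2 alone they were 0 (1307) for sex in controls and 0 (53) in Pparg knockouts. Limma on log2 FPKM gave 1 (340) in T-bet knockout females, voom 7 (4463) for sex in controls, and no filter 3 (1221) for sex in Pparg knockouts. Without the batch term they were 0 (506) for sex in Pparg and 3 (522) in T-bet knockouts. Without libraries with epithelial transcripts they were 1 (116) in T-bet knockout females, 0 (189) for sex in Pparg and 2 (1001) in T-bet knockouts. Leaving out 1 library at a time gave 6 to 15 for sex in controls, 0 to 8 in Pparg and 3 to 5 in T-bet knockouts, and 0 in the other 8 comparisons. With the replicate block the counts were 13 (4508), 4 (1266) and 4 (1429) for sex in controls, Pparg and T-bet knockouts. Between different groups, samples of the same replicate number did not pair beyond their batch: the median correlation of deviations was 0.22 for the same number and 0.23 for the other number of the same batch. Equal animal numbers in both batches of a group were not compared, so whether they are the same animal stays unknown. Signs turned in batch 2 alone for Ccl6 in T-bet against control males (0.37) and Cxcl13 in T-bet against Pparg knockout males (0.24); the cause was not tested. Few reads limit Cxcl2, Ccr4 and Ccr9.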
